A study of Homo sapiens with 8 samples.

Results

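SR proteins and heterogeneous nuclear ribonucleoproteins (hnRNPs) are the RNA-binding proteins that decide, together with the core spliceosome, which exons enter a messenger RNA. The 40 genes described here were chosen by name, as the rows of the expression tables whose gene symbol was on a list of splicing regulators, and make up 40 of the 61552 genes in the tables. The list holds 12 SR protein genes, 2 TRA2 genes, 18 hnRNP genes, 3 PTB genes and 5 regulators known for tissue-type splicing (MBNL1, MBNL2, RBFOX2, ESRP1 and ESRP2). They were measured by sequencing of mRNA-enriched libraries in 4 groups of 2 libraries each. These were LM2 cells with a short hairpin RNA against TAF7 (LM2 shTAF7), LM2 cells with a control hairpin (LM2 control), MDA-MB-231 cells with the same TAF7 hairpin (MDA-MB-231 shTAF7) and MDA-MB-231 cells with a control hairpin (MDA-MB-231 control). MDA-MB-231 comes from a triple-negative breast carcinoma, and MDA231-LM2, called LM2 here, is a derivative of it that was selected for spread to the lung. The labels give the knockdown libraries the genotype TAF7 knockdown and name a single TAF7 hairpin, number 3, so no second hairpin stands beside it. The stated question was which genes TAF7 regulates. TAF7 is part of TFIID, the complex that recognises core promoters at the onset of transcription. Nothing in the labels says whether the 2 libraries of a group came from separate cultures, so the p-values given here measure the spread between libraries, which may be technical.

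SR proteins carry RNA recognition motifs and a tail rich in arginine and serine, bind mainly to enhancer elements in exons and recruit spliceosome components to nearby splice sites. Many hnRNPs bind silencer elements and keep exons out, so that inclusion of an exon depends on the balance between both families. SR proteins are phosphorylated by SRPK and CLK kinases and carried into the nucleus by transportin 3. Most SR genes, and several hnRNP genes, limit their own level through ultraconserved poison exons, whose inclusion sends the transcript to nonsense-mediated decay (NMD). In GENCODE release 29, 30 of the 40 genes (75.0%) have an annotated NMD transcript, among them all 14 SR and TRA2 genes, against 5497 of the 12888 tested protein-coding genes (42.7%). The values below are counts per gene, so they add productive and poison-exon transcripts together and show neither splicing nor protein.

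Library totals ran from 17217776 to 20292291 counts, and 1 read corresponded to 0.0488 to 0.0583 CPM (counts scaled to library size with TMM factors over the tested genes). TAF7, which checks the hairpin, had 142 and 148 CPM in LM2 shTAF7 libraries and 195 and 197 CPM in LM2 controls, and 108 and 105 CPM in MDA-MB-231 shTAF7 libraries against 179 and 185 CPM in MDA-MB-231 controls. The knockdown therefore left 74.2% of the control level in LM2 (log2 fold change -0.43 ± 0.07 SE, edgeR adjusted p 8.42e-07) and 58.5% in MDA-MB-231 (-0.77 ± 0.07, 4.01e-12). The LM2 controls stood apart in that 24762 and 24490 genes had a read there, against 22296 to 23434 in the other 6 libraries. Mitochondrially encoded transcripts took 5.68% and 4.57% of counts in LM2 shTAF7 libraries, 5.95% and 5.77% in LM2 controls, 3.51% and 4.87% in MDA-MB-231 shTAF7 libraries and 3.96% and 3.39% in MDA-MB-231 controls. The part of either feature in the results below was not tested. Of the markers of a mesenchymal-type line, VIM lay between 948 and 2354 CPM and CD44 between 318 and 570 CPM. Of the epithelial and hormone receptor markers, CDH1 had at most 3 counts, ESR1 at most 5 and PGR at most 1 in any library, but EPCAM had 93 to 194 counts in every library, and its knockdown effect differed between the lines by 0.68 ± 0.22 (adjusted p 0.0188). The leukocyte marker PTPRC had at most 5 counts. The endothelial marker PECAM1 had 0.949 and 1.16 CPM in LM2 shTAF7 libraries and 3.63 and 3.29 CPM in LM2 controls (-1.70 ± 0.28, 2.89e-06), and 6.82 and 6.54 CPM in MDA-MB-231 shTAF7 libraries against 4.37 and 3.52 CPM in MDA-MB-231 controls (0.75 ± 0.20, 0.0037). The part of these markers in the results was not tested.

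Of the 40 genes, 39 had enough reads to be tested among 15923 genes. SRSF12 was left out, with 2 counts in LM2 control replicate 3 and 0 in every other library. On the FPKM scale (fragments scaled to gene length and library total), HNRNPA1 was the most abundant with a mean of 421 FPKM over the 8 libraries. HNRNPAB followed at 276 FPKM, HNRNPK at 212 FPKM, HNRNPC at 168 FPKM, HNRNPA2B1 at 151 FPKM and HNRNPF at 141 FPKM. Among SR genes SRSF2 led at 94.4 FPKM, whereas SRSF1, the founding member of the family, averaged 14.6 FPKM. PTBP2, best known as the neuronal PTB protein, averaged 3.71 FPKM, and the epithelial splicing regulators ESRP1 and ESRP2 averaged 0.666 and 0.643 FPKM. This order, and the size of any FPKM ratio between genes, depends on the gene lengths used, which are not given. HNRNPU, with 22512 annotated exon bases, averaged 1388 CPM but 61.5 FPKM. HNRNPAB, with 2144 exon bases, averaged 591 CPM and 276 FPKM. Together the 40 genes took 2.03% ± 0.0191 of all counts in LM2 shTAF7, 1.77% ± 0.0742 in LM2 control, 1.88% ± 0.0403 in MDA-MB-231 shTAF7 and 1.81% ± 0.00283 in MDA-MB-231 control (SD, n = 2 each). The 2 LM2 shTAF7 libraries, at 2.01% and 2.04%, lay above the other 6, which ran from 1.72% to 1.91%.

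**Figure D1:**
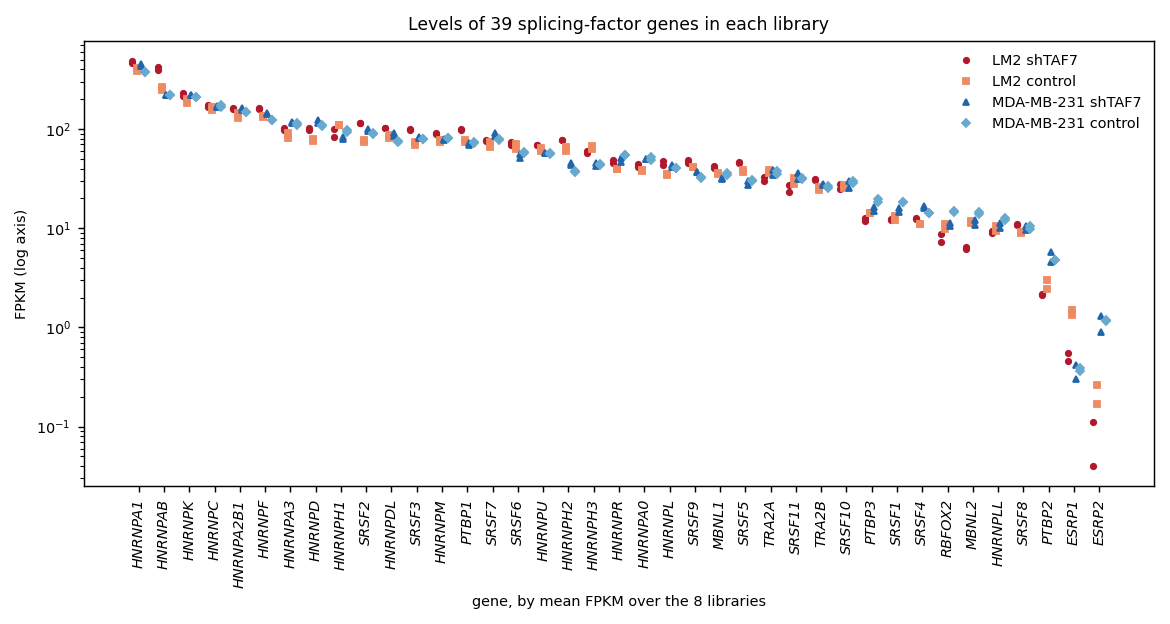
FPKM (log axis) of the 39 tested genes in each of the 8 libraries, ordered by mean FPKM; symbols mark the 4 groups. Levels fall from 421 FPKM for HNRNPA1 to 0.643 FPKM for ESRP2, and the groups separate most for PTBP2, ESRP1 and ESRP2 at the low end.

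TAF7 knockdown in LM2 came with more transcript of most of these genes. By quasi-likelihood testing in edgeR, with p-values adjusted over all 15923 genes and called under 0.05, 26 of 39 were called higher (66.7%) and 4 lower (10.3%), against 21.8% higher, 19.4% lower and 41.3% in either direction among all tested genes. The median log2 fold change of the 39 genes was 0.32, and that of all tested genes -0.02. The 7 tested genes of the hnRNP A/B/D family were all called higher, as were 8 of 11 SR genes, 6 of 7 genes in the group of HNRNPC, HNRNPK, HNRNPL, HNRNPLL, HNRNPM, HNRNPR and HNRNPU, 2 of 4 in the hnRNP F/H family, 1 of 2 TRA2 genes and 1 of 3 PTB genes. The 4 genes called lower were MBNL2, RBFOX2, ESRP1 and ESRP2, all from the tissue-type regulators, where MBNL1 alone was called higher. Calls depend on abundance: the median of the mean levels was 319 CPM for the 39 genes and 18.2 CPM for all tested genes. Among the 2311 tested genes with a mean of at least 100 CPM, a bound chosen after the values were seen, 51.1% were called higher and 13.9% lower with a median of 0.18, while 25 of the 32 splicing genes above that bound were higher (78.1%) and 1 lower, with a median of 0.34. Scaling to library totals in place of TMM moved the median of all genes in LM2 to -0.14 and their split to 13.1% higher and 29.3% lower. The splicing genes then had a median of 0.19, with 22 higher and 10 lower. The 6 genes called lower under that scaling in addition to those 4 were SRSF11, TRA2A, HNRNPH1, HNRNPH3, PTBP2 and PTBP3.

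In MDA-MB-231 the same hairpin gave a mixed and weaker picture. There 7 of 39 genes were called higher (17.9%) and 6 lower (15.4%), close to the 12.6% and 12.9% of all tested genes (25.6% in either direction), and the median log2 fold change was 0.01 both for the 39 genes and for all genes. Above 100 CPM, 7 of 32 splicing genes were higher (21.9%) and 3 lower (9.38%), against 21.9% and 24.4% of all genes. Fewer of the splicing genes were thus called lower than of all genes at that abundance. The calls among the 39 genes depended on single libraries: fewer of the 39 genes passed when MDA-MB-231 shTAF7 replicate 3 or either MDA-MB-231 control was left out. Fewer of all tested genes passed then too. Without shTAF7 replicate 3, control replicate 2 or control replicate 3, the median log2 fold change of the 39 genes was 0.011, 0.019 and 0.036. That of all tested genes was 0.002, 0.003 and 0.011, in the same order. The interaction tested the difference directly, as the log2 fold change in LM2 minus that in MDA-MB-231. It was called positive for 15 of 39 genes (38.5%) and negative for 3 (7.69%), against 13.9% and 11.9% of all tested genes (25.8% in either direction). Above 100 CPM the share called positive was 13 of 32 splicing genes (40.6%) and 36.0% of all genes, which is near that background. Called negative there were 0 of the 32 and 8.18% of all genes. Without MDA-MB-231 control replicate 3 fewer than 15 were called positive, and fewer of all tested genes as well. Scaling to library totals gave 9 positive and 4 negative, with 8.15% and 16.8% of all genes and a median of all genes of -0.12.

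**Figure D2:**
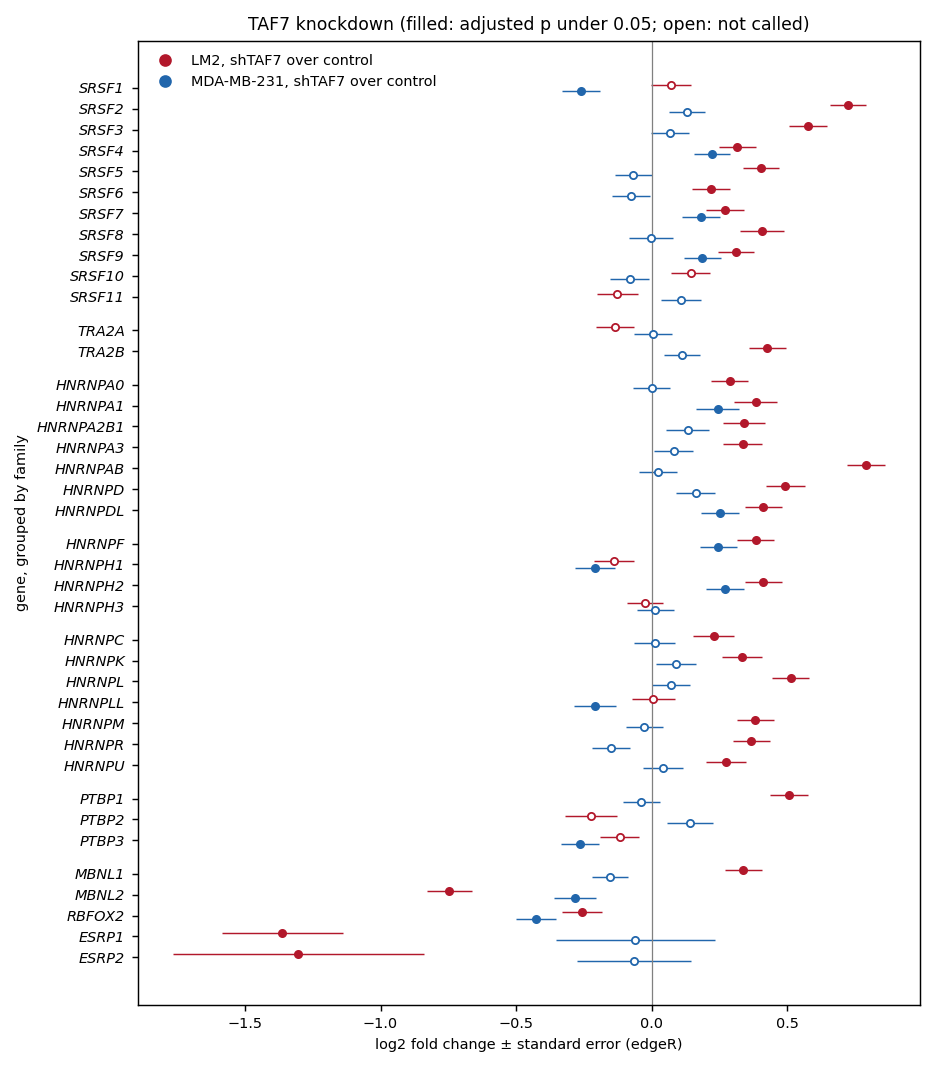
Log2 fold change of shTAF7 over control ± SE (edgeR, n = 2 libraries per group) for 39 genes grouped by family, in LM2 (red) and MDA-MB-231 (blue); filled points have an adjusted p under 0.05. Most red points lie right of 0, at up to 0.79 for HNRNPAB, while MBNL2, RBFOX2, ESRP1 and ESRP2 lie left of it.

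TFIID binds at core promoters, and promoter sequence from RefSeq (GRCh38.p14) was found for 34 of the 40 genes. The window ran from 250 bases before to 50 bases after a single annotated start per gene. The authors' notes name hg19, so these coordinates are those of RefSeq and not of the counted genes. Shown are the 250 bases before the start for 3 genes called higher after knockdown in LM2 (HNRNPAB, PTBP1 and SRSF3) and for MBNL2, called lower in both lines. These genes were picked by hand and not by rank, so they do not stand for the others. RBFOX2, ESRP1 and ESRP2, also called lower in LM2, had no promoter sequence here, so MBNL2 alone represents the lower genes. Capitals mark the TATA box (letters TATAAA), the CAAT box (letters CCAAT) and the GC box (letters GGGCGG), each searched on both strands; none of these motifs overlaps another here.

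HNRNPAB, chr5:178204283-178204532, plus strand: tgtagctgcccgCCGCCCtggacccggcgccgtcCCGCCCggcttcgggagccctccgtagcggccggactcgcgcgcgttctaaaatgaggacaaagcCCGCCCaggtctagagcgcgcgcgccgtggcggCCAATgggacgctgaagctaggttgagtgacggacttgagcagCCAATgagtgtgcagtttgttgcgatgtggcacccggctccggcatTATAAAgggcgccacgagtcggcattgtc
PTBP1, chr19:797202-797451, plus strand: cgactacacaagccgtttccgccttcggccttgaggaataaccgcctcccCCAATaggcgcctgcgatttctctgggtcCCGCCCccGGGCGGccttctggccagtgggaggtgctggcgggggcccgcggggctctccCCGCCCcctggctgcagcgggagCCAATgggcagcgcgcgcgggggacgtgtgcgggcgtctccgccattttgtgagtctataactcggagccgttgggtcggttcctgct
SRSF3, chr6:36594112-36594361, plus strand: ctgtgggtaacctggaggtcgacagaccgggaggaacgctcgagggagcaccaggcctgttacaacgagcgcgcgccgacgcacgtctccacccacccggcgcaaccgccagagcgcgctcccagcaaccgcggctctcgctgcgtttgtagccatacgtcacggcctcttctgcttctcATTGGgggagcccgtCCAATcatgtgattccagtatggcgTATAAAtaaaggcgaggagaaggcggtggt
MBNL2, chr13:97141584-97141833, plus strand: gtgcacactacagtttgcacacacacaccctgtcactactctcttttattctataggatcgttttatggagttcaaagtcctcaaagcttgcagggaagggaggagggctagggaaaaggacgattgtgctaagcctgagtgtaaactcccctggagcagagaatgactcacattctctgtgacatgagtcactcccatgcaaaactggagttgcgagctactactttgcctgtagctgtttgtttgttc

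HNRNPAB and SRSF3 hold TATAAA with its first letter 29 and 30 bases before the start, PTBP1 holds GGGCGG at 3 places and CCAAT at 2, and the MBNL2 window holds none of these letters. GC content was 66.0% for HNRNPAB, 69.2% for PTBP1, 62.4% for SRSF3 and 46.8% for MBNL2 in the stretch shown. Over the full windows, TATAAA was present in 5 of 34 promoters (14.7%; HNRNPAB, HNRNPC, HNRNPD, SRSF3 and SRSF11), against 12% of all 27305 promoters and 5.93% of those of tested genes. CCAAT was present in 44.1%, against 35.7% of all and 36.6% of tested promoters, and GGGCGG in 67.6%, against 44.6% and 69.0%. CACGTG, the E-box, was present in 17.6%, against 7.43% and 9.82%, and CCGGAAG in 14.7%, against 10.7% and 18.7%. TGACGTCA was in 0 of the 34, against 1.98% and 3.15%. These are matches of letters in a window and say nothing of binding. A single start stands for each gene, although GENCODE lists 8 transcripts for HNRNPAB, 21 for PTBP1, 8 for SRSF3 and 6 for MBNL2. Whether these transcripts start elsewhere was not tested, so the contrast with MBNL2 holds only for the stretches shown.

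Among the SR genes, SRSF2, which also acts in transcription elongation, had 357 and 365 CPM in LM2 shTAF7 libraries and 226 and 211 CPM in LM2 controls, with 283 and 295 CPM in MDA-MB-231 shTAF7 libraries against 261 and 266 CPM in MDA-MB-231 controls. Both LM2 shTAF7 libraries lay above all 6 others. The log2 fold change was 0.72 ± 0.07 in LM2 (adjusted p 2.68e-12) and 0.13 ± 0.07 in MDA-MB-231 (0.151). The 2 effects differed by 0.59 ± 0.10 (4.19e-06). MFSD11, a gene on the other strand that overlaps 36.7% of the exon bases of SRSF2, had 129 to 206 counts per library and a log2 fold change of 0.01 ± 0.14 in LM2 (adjusted p 0.965). Between the lines MFSD11 was higher in LM2 with the control hairpin (0.478 ± 0.151, adjusted p 0.00519) and with shTAF7 (0.585 ± 0.152, 0.000818). SRSF3, the smallest SR protein, had 718 and 756 CPM in LM2 shTAF7 libraries and 511 and 478 CPM in LM2 controls, and 575 and 589 CPM in MDA-MB-231 shTAF7 libraries against 553 and 557 CPM in MDA-MB-231 controls. It rose in LM2 by 0.58 ± 0.07 (3.38e-09), and its effects differed between lines by 0.51 ± 0.10 (8.31e-05). As for SRSF2, the LM2 shTAF7 libraries were highest and the LM2 controls lowest.

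SRSF5 had 252 and 265 CPM in LM2 shTAF7 libraries, 200.4 and 191 CPM in LM2 controls, 145 and 158 CPM in MDA-MB-231 shTAF7 libraries and 157 and 161 CPM in MDA-MB-231 controls. Thus LM2 was above MDA-MB-231 with either hairpin, and the knockdown effect in LM2 was 0.40 ± 0.07 (adjusted p 3.56e-06). SRSF6 followed the same order, with 377 and 358 CPM in LM2 shTAF7 libraries, 333 and 299 CPM in LM2 controls, 254 and 272 CPM in MDA-MB-231 shTAF7 libraries and 273 and 281 CPM in MDA-MB-231 controls. Its call in LM2 (0.22 ± 0.07, 0.00916) was lost without LM2 control replicate 3 (0.14, adjusted p 0.204) and without LM2 shTAF7 replicate 2 (0.17, 0.0641).

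SRSF1, an oncogenic splicing factor in breast epithelium, was not higher after knockdown in either line. It had 73.9 and 75.4 CPM in LM2 shTAF7 libraries, 67.5 and 74.4 CPM in LM2 controls, 84.4 and 90.5 CPM in MDA-MB-231 shTAF7 libraries and 104 and 106 CPM in MDA-MB-231 controls. The groups overlapped in LM2 (0.07 ± 0.07, adjusted p 0.449), whereas in MDA-MB-231 both knockdown libraries lay below both controls (-0.26 ± 0.07, 0.00501; 0.0615 without control replicate 3). GENCODE places 56.6% of its exon bases also in another gene on the same strand, AC015813.2, so the assignment of its reads is uncertain. SRSF4 had 116 and 117 CPM in LM2 shTAF7 libraries and 93.3 and 93.8 CPM in LM2 controls, and 142 and 147 CPM in MDA-MB-231 shTAF7 libraries against 124 and 124 CPM in MDA-MB-231 controls. It was called higher in both lines, by 0.32 ± 0.07 (0.000197) in LM2 and 0.22 ± 0.07 (0.0104) in MDA-MB-231. SRSF9 had 177 and 194 CPM in LM2 shTAF7 libraries, 149 and 149 CPM in LM2 controls, 136 and 134 CPM in MDA-MB-231 shTAF7 libraries and 121 and 117 CPM in MDA-MB-231 controls. Its log2 fold changes were 0.31 ± 0.07 (0.000205) in LM2 and 0.19 ± 0.07 (0.0388) in MDA-MB-231. Both MDA-MB-231 calls ended when MDA-MB-231 shTAF7 replicate 3 or either MDA-MB-231 control was left out, with adjusted p between 0.0747 and 0.124 for SRSF4 and between 0.0871 and 0.291 for SRSF9, which also lost its call without shTAF7 replicate 2 (0.122). GATC, which shares 46.2% of the exon bases of SRSF9 on the other strand, had a log2 fold change of -0.03 in LM2 (0.829).

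Of the remaining SR and TRA2 genes, SRSF7 was called higher in LM2 (0.27 ± 0.07) and in MDA-MB-231 (0.18 ± 0.07), though not without LM2 control replicate 3 in LM2 (adjusted p 0.0715) or without shTAF7 replicate 3 or either control in MDA-MB-231 (0.202 to 0.286). The LM2 calls of SRSF6 and SRSF7 were also lost when library totals replaced TMM. SRSF8 was called higher in LM2 (0.41 ± 0.08, with an interaction of 0.41 ± 0.12, adjusted p 0.0065). TRA2B, which binds purine-rich exonic enhancers, was called higher in LM2 (0.43 ± 0.07), with 426 and 427 CPM in LM2 shTAF7 libraries and 327 and 306 CPM in LM2 controls. Its paralog TRA2A had 119.5 and 112 CPM there against 132 and 122 CPM (-0.13 ± 0.07, adjusted p 0.13). SRSF10 (0.14) and SRSF11 (-0.13) were not called after knockdown in LM2 either, and neither passed the test in MDA-MB-231 (-0.08 and 0.11).

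HNRNPAB, a nuclear and cytoplasmic RNA-binding protein of the A/B type, showed the highest fold change of the 39 genes in LM2. It had 873 and 953 CPM in LM2 shTAF7 libraries and 545 and 511 CPM in LM2 controls, whereas the MDA-MB-231 libraries ranged narrowly, with 466 and 464 CPM for shTAF7 and 454 and 459.6 CPM for control. In LM2 it rose by 0.79 ± 0.07 (adjusted p 6.52e-13), against 0.02 ± 0.07 (0.852) in MDA-MB-231, an interaction of 0.77 ± 0.10 (4.67e-08). PHYKPL, which shares 9.14% of the exon bases of HNRNPAB on the other strand, moved the other way in LM2 (-0.26 ± 0.11, 0.0417) and had 224 to 426 counts per library. In MDA-MB-231 PHYKPL was higher after knockdown (0.34 ± 0.12, 0.0239). Between the lines PHYKPL was higher in LM2, as HNRNPAB was, with the control hairpin (0.87 ± 0.11, adjusted p 2.76e-09) and with shTAF7 (0.26 ± 0.11, 0.0342). How shared reads were assigned is not known. HNRNPD, also known as AUF1 and a regulator of the decay of AU-rich transcripts, had 715 and 775 CPM in LM2 shTAF7 libraries and 543 and 515 CPM in LM2 controls, and 812 and 859 CPM in MDA-MB-231 shTAF7 libraries against 749 and 743 CPM in MDA-MB-231 controls. It rose in LM2 by 0.49 ± 0.07 (2.07e-07). The knockdown libraries of MDA-MB-231 also lay above their controls, yet the test was not passed (0.16 ± 0.07, 0.0859).

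HNRNPA1, which antagonises SR proteins at many exons, had 3246 and 3481 CPM in LM2 shTAF7 libraries, 2680 and 2473 CPM in LM2 controls, 2872 and 2984 CPM in MDA-MB-231 shTAF7 libraries and 2465 and 2478 CPM in MDA-MB-231 controls. In each line both knockdown libraries lay above both controls, by 0.38 ± 0.08 (adjusted p 0.000107) in LM2 and 0.24 ± 0.08 (0.0188) in MDA-MB-231. HNRNPA1 has many processed copies in the genome: 76 rows of the table carry names derived from it, 28 of them with reads, whose 4379 counts equal 1.04% of its own. HNRNPDL, an HNRNPD paralog, had 591 and 608 CPM in LM2 shTAF7 libraries and 471 and 429.9 CPM in LM2 controls, and 472 and 504 CPM in MDA-MB-231 shTAF7 libraries against 407 and 412 CPM in MDA-MB-231 controls. It was called higher in LM2 (0.41 ± 0.07, 3.94e-06) and in MDA-MB-231 (0.25 ± 0.07, 0.00506). Both MDA-MB-231 calls were lost without shTAF7 replicate 3 or either control (adjusted p 0.0706 to 0.21). HNRNPA0, HNRNPA2B1 and HNRNPA3 were called higher in LM2, at 0.29, 0.34 and 0.34, and not in MDA-MB-231, at 0.00, 0.13 and 0.08. The interaction passed for HNRNPA0 (0.29 ± 0.10, 0.0233) and not for HNRNPA2B1 (0.21 ± 0.11, 0.166) or HNRNPA3 (0.26 ± 0.10, 0.0582).

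The F/H genes encode proteins that bind runs of G, and their members differed. HNRNPH2 had 184 and 189 CPM in LM2 shTAF7 libraries, 145 and 134 CPM in LM2 controls, 104 and 98.2 CPM in MDA-MB-231 shTAF7 libraries and 82.8 and 84.8 CPM in MDA-MB-231 controls. No groups overlapped: it was higher after knockdown in LM2 (0.41 ± 0.07, adjusted p 2.64e-06) and in MDA-MB-231 (0.27 ± 0.07, 0.00337; 0.0854 without control replicate 2). HNRNPF had 541 and 577 CPM in LM2 shTAF7 libraries and 435 and 422 CPM in LM2 controls, and 482 and 464 CPM in MDA-MB-231 shTAF7 libraries against 398 and 399.5 CPM in MDA-MB-231 controls. Its log2 fold changes were 0.38 ± 0.07 (9.5e-06) and 0.25 ± 0.07 (0.00554; 0.104 without control replicate 2 and 0.0946 without control replicate 3), first for LM2 and then for MDA-MB-231. HNRNPH1 had 985 and 851 CPM in LM2 shTAF7 libraries and 1016 and 1007 CPM in LM2 controls (-0.14 ± 0.07, 0.127), and 758 and 785 CPM in MDA-MB-231 shTAF7 libraries against 902 and 879 CPM in MDA-MB-231 controls (-0.21 ± 0.07, 0.0334). Leaving out any MDA-MB-231 library ended the MDA-MB-231 call, with adjusted p between 0.0583 and 0.242. The FPKM ratio of HNRNPH2 to HNRNPH1 was 0.77 and 0.916 in LM2 shTAF7 libraries, 0.591 and 0.551 in LM2 controls, 0.568 and 0.517 in MDA-MB-231 shTAF7 libraries and 0.379 and 0.399 in MDA-MB-231 controls. GENCODE places 16.3% of the exon bases of HNRNPH2 also in RPL36A-HNRNPH2 on the same strand, so the assignment of HNRNPH2 reads is uncertain. HNRNPH3 was not called in either knockdown (-0.02 in LM2 and 0.01 in MDA-MB-231).

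HNRNPL, which binds CA repeats, had 293 and 327 CPM in LM2 shTAF7 libraries and 216 and 219 CPM in LM2 controls, and 284 and 264 CPM in MDA-MB-231 shTAF7 libraries against 259 and 262 CPM in MDA-MB-231 controls. It rose in LM2 by 0.51 ± 0.07 (adjusted p 4.15e-08), and the effects differed between lines by 0.44 ± 0.10 (0.000495). Its paralog HNRNPLL, known for CD45 splicing in lymphocytes, had 58.4 and 56.8 CPM in LM2 shTAF7 libraries and 54.5 and 60.2 CPM in LM2 controls, which overlapped. In MDA-MB-231 it had 67.4 and 59.6 CPM with shTAF7 and 71.4 and 75.0 CPM with the control hairpin (-0.21 ± 0.08, 0.0388), a call lost without shTAF7 replicate 3 (-0.12, 0.4) or either control (0.0918 and 0.258). HNRNPR had 439 and 423 CPM in LM2 shTAF7 libraries and 338 and 330.2 CPM in LM2 controls, and 444 and 399 CPM in MDA-MB-231 shTAF7 libraries against 469 and 465 CPM in MDA-MB-231 controls. The LM2 effect was 0.37 ± 0.07 (2.49e-05) and the MDA-MB-231 effect -0.15 ± 0.07 (0.109), a difference of 0.52 ± 0.10 (5.91e-05). HNRNPM (0.38), HNRNPK (0.33), HNRNPU (0.28) and HNRNPC (0.23) were called higher in LM2 and lay between -0.03 and 0.09 in MDA-MB-231. COX20, on the other strand, overlaps 15.6% of the exon bases of HNRNPU and had 3 to 11 counts per library. The calls of HNRNPC and HNRNPU were lost without LM2 control replicate 3 (adjusted p 0.164 and 0.0622) and when library totals replaced TMM, and that of HNRNPC also without LM2 shTAF7 replicate 3 (0.0655).

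**Figure D3:**
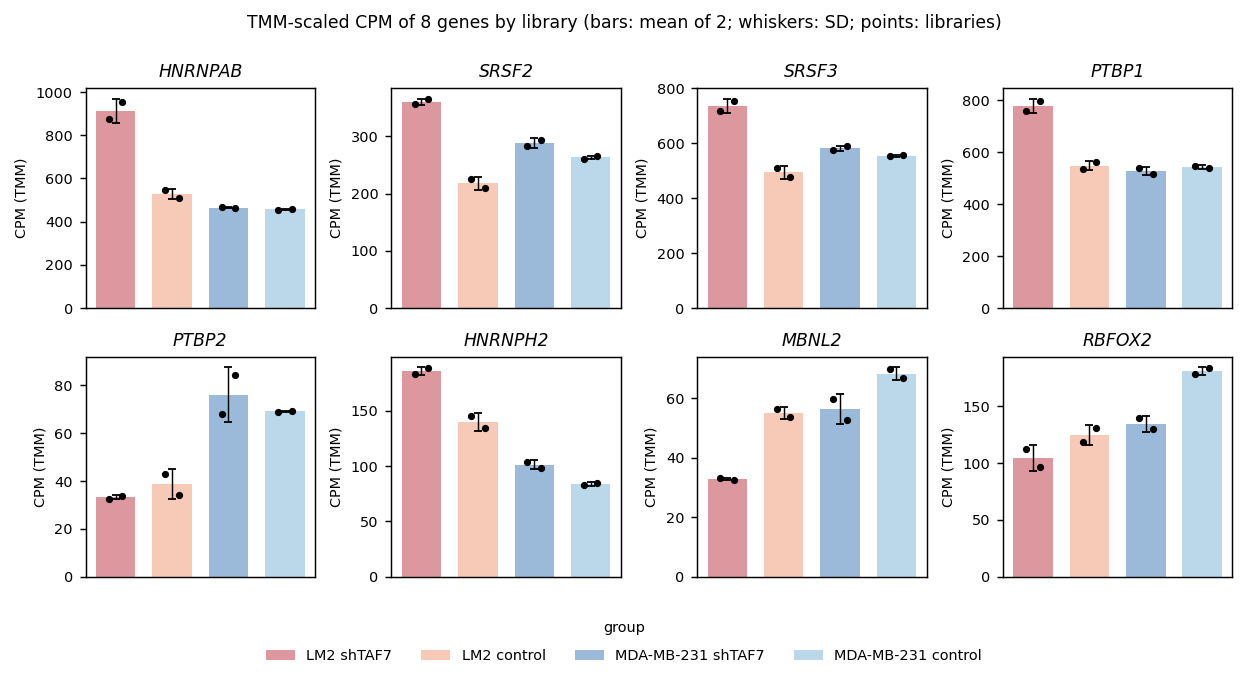
TMM-scaled CPM of 8 genes by group; bars are means of 2 libraries, whiskers the SD and points the libraries. HNRNPAB, SRSF2, SRSF3 and PTBP1 are highest in LM2 shTAF7, while MBNL2, RBFOX2 and PTBP2 are lowest there; HNRNPH2 is above its control in both lines.

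The PTB proteins repress exons flanked by pyrimidine-rich sequence, and PTBP1 lowers PTBP2 in non-neuronal cells by causing a PTBP2 exon to be skipped. PTBP1 had 760.1 and 799 CPM in LM2 shTAF7 libraries and 536 and 561 CPM in LM2 controls, while MDA-MB-231 had 539.8 and 517 CPM with shTAF7 and 547 and 538 CPM with the control hairpin. It rose in LM2 by 0.51 ± 0.07 (adjusted p 6.18e-08), with -0.04 ± 0.07 in MDA-MB-231 and an interaction of 0.55 ± 0.10 (2.85e-05). PTBP2 had 32.5 and 33.7 CPM in LM2 shTAF7 libraries and 43.0 and 34.3 CPM in LM2 controls, against 67.9 and 84.2 CPM in MDA-MB-231 shTAF7 libraries and 68.9 and 69.2 CPM in MDA-MB-231 controls. The LM2 knockdown effect on PTBP2 missed the threshold (-0.22 ± 0.10, 0.0582). The interaction (-0.37 ± 0.13, 0.0292) was lost when any of 6 single libraries was left out, at adjusted p up to 0.363 without LM2 control replicate 2. PTBP3 had 108 and 103 CPM in LM2 shTAF7 libraries, 115 and 114 CPM in LM2 controls, 136 and 121 CPM in MDA-MB-231 shTAF7 libraries and 148 and 159 CPM in MDA-MB-231 controls. It was called lower in MDA-MB-231 (-0.27 ± 0.07, 0.00365), though not without shTAF7 replicate 3 (0.12) or control replicate 3 (0.117).

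MBNL and RBFOX proteins steer exons used in differentiated tissue. MBNL2 had 33.2 and 32.5 CPM in LM2 shTAF7 libraries and 56.4 and 53.7 CPM in LM2 controls, and 59.8 and 52.7 CPM in MDA-MB-231 shTAF7 libraries against 69.8 and 66.7 CPM in MDA-MB-231 controls. It fell in LM2 by 0.75 ± 0.08 on the log2 scale (adjusted p 3.87e-10) and in MDA-MB-231 by 0.28 ± 0.08 (0.00506). The MDA-MB-231 call was lost without shTAF7 replicate 3 (0.153) or control replicate 2 (0.0909). The fall in LM2 was larger by 0.46 ± 0.11 (0.0015). Its paralog MBNL1 had 441 and 432 CPM in LM2 shTAF7 libraries and 352 and 338 CPM in LM2 controls, while MDA-MB-231 had 314 and 316 CPM with shTAF7 and 342 and 358 CPM with the control hairpin. MBNL1 rose in LM2 (0.34 ± 0.07, 5.26e-05), and its interaction was 0.49 ± 0.10 (8.4e-05). Hence the FPKM ratio of MBNL1 to MBNL2 was 6.51 and 6.49 in LM2 shTAF7 libraries, against 3.05 and 3.08 in LM2 controls, 2.57 and 2.93 in MDA-MB-231 shTAF7 libraries and 2.39 and 2.62 in MDA-MB-231 controls. The FPKM ratio of PTBP1 to PTBP2 was 45.5 and 46.1 in LM2 shTAF7 libraries, 24.3 and 32.0 in LM2 controls, 15.5 and 12 in MDA-MB-231 shTAF7 libraries and 15.5 and 15.2 in MDA-MB-231 controls.

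**Figure D4:**
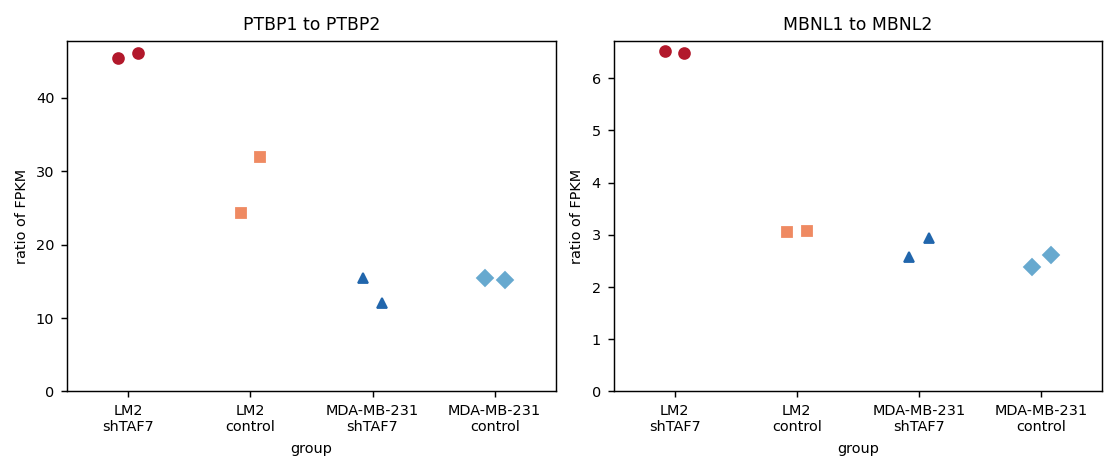
FPKM ratios of paralog pairs by group, each point a library. Both ratios are highest in LM2 shTAF7, where PTBP1 to PTBP2 is 45.5 and 46.1 and MBNL1 to MBNL2 is 6.51 and 6.49.

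RBFOX2, whose targets include exons that differ between epithelial and mesenchymal cells, had 113 and 96.4 CPM in LM2 shTAF7 libraries and 118 and 131 CPM in LM2 controls, and 139.5 and 129.7 CPM in MDA-MB-231 shTAF7 libraries against 178 and 183 CPM in MDA-MB-231 controls. In MDA-MB-231 it had the largest fall of the 39 genes (-0.43 ± 0.07, adjusted p 1.49e-05), and this call held when any single library was left out. The LM2 call (-0.26 ± 0.07, 0.00487) was lost without LM2 shTAF7 replicate 3 (-0.14, 0.195) or LM2 control replicate 3 (-0.18, 0.126). ESRP1, which drives epithelial exon choices, had few reads, with 42 and 54 counts in LM2 shTAF7 libraries, 115 and 127 in LM2 controls, 35 and 30 in MDA-MB-231 shTAF7 libraries and 33 and 34 in MDA-MB-231 controls. It fell in LM2 by 1.36 ± 0.22 (2.35e-06) and was at -0.06 ± 0.29 (0.917) in MDA-MB-231. ESRP2 had 4 and 12 counts in LM2 shTAF7 libraries, 16 and 23 in LM2 controls, 80 and 138 in MDA-MB-231 shTAF7 libraries and 115 and 108 in MDA-MB-231 controls. Its LM2 call (-1.30 ± 0.46, 0.0203) was lost without LM2 shTAF7 replicate 2 (0.244) or LM2 control replicate 3 (0.184). In such bulk libraries, a lower level could mean fewer cells with the transcript or less of it per cell, and these cannot be told apart.

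LM2 against MDA-MB-231 was compared with each hairpin. These comparisons use the libraries already described, so they are not independent of the knockdown effects. With the control hairpin, 8 of 39 genes were called higher in LM2 (20.5%) and 18 lower (46.2%), against 32.2% and 32.1% of all tested genes (64.4% in either direction), with a median log2 fold change of -0.13 against 0.02 for all genes. Among genes with at least 100 CPM the shares were 21.9% higher and 37.5% lower for 32 splicing genes and 32.0% and 46.3% for all. The medians above that bound were nearly equal, at -0.104 for the splicing genes and -0.106 for all genes. Without MDA-MB-231 control replicate 2 or 3, or without LM2 control replicate 2, fewer of the 39 genes and fewer of all tested genes were called higher. With the shTAF7 hairpin, 19 were called higher (48.7%) and 9 lower (23.1%), against 30.9% and 31.6% of all tested genes (62.5% in either direction), with a median of 0.18 against 0.00. Among genes with at least 100 CPM the shares were 56.2% higher and 15.6% lower for 32 splicing genes and 43.2% and 32.4% for all. There the medians were 0.217 for the splicing genes and 0.07 for all genes. Scaling to library totals gave 16 higher and 14 lower there, against 26.6% and 35.9% of all tested genes, whose median was then -0.08.

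PTBP2 was the lowest in LM2 of the genes above 5 CPM, at -1.20 ± 0.09 with shTAF7 (adjusted p 3.89e-16) and -0.84 ± 0.09 with the control hairpin (2.41e-11). HNRNPAB was at 0.97 ± 0.07 with shTAF7 (8.78e-17) and 0.21 ± 0.07 with the control hairpin (0.00852), the second of which was lost without LM2 control replicate 2 (0.108) or either MDA-MB-231 control (0.107 and 0.0769). HNRNPH2 was higher in LM2 with both hairpins, at 0.88 ± 0.07 and 0.74 ± 0.07, as was SRSF5 at 0.77 ± 0.07 and 0.30 ± 0.07, each given with shTAF7 before control. HNRNPH3 had 320.1 and 347 CPM in LM2 shTAF7 libraries against 229.8 and 244 CPM in MDA-MB-231 shTAF7 libraries (0.49 ± 0.07, 1.89e-08), and 351 and 327 CPM in LM2 controls against 236 and 233 CPM in MDA-MB-231 controls (0.53 ± 0.07, 2.84e-09). SRSF9 and SRSF6 were higher in LM2 with shTAF7 (0.45 and 0.48) and with the control hairpin (0.33 and 0.19). The control-hairpin call of SRSF6 was lost without LM2 control replicate 2 (0.262) or either MDA-MB-231 control (0.154 and 0.0726).

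Lower in LM2 with both hairpins were SRSF1 (-0.23 and -0.56), SRSF4 (-0.31 and -0.41), HNRNPD (-0.17 and -0.50), PTBP3 (-0.28 and -0.43), MBNL2 (-0.78 and -0.31), RBFOX2 (-0.36 and -0.54), PTBP2 and ESRP2, each given with shTAF7 before control. Of these, the shTAF7-hairpin call of HNRNPD was lost without LM2 shTAF7 replicate 2 (0.188), MDA-MB-231 shTAF7 replicate 3 (0.183) or either MDA-MB-231 control (0.0765 and 0.0766), and that of SRSF1 without MDA-MB-231 shTAF7 replicate 3 (0.0704). ESRP2 was at -3.71 ± 0.34 and -2.47 ± 0.28, while ESRP1 was called higher in LM2 with the control hairpin (1.89 ± 0.24, adjusted p 1.54e-09) and missed the threshold with shTAF7 (0.58 ± 0.27, 0.0596). SRSF2, SRSF3, SRSF8 and HNRNPL were lower in LM2 with the control hairpin, at -0.27, -0.17, -0.20 and -0.26, and higher with shTAF7, at 0.32, 0.34, 0.21 and 0.18. The control-hairpin calls of SRSF3 and SRSF8 were lost without LM2 control replicate 3 (0.205 and 0.145) or MDA-MB-231 control replicate 3 (0.148 and 0.225), and further that of SRSF3 without MDA-MB-231 control replicate 2 (0.12) and that of SRSF8 without LM2 control replicate 2 (0.0509). The shTAF7-hairpin calls of HNRNPL and SRSF8 were lost without LM2 shTAF7 replicate 3 (0.164 and 0.093), that of HNRNPL without MDA-MB-231 shTAF7 replicate 3 (0.163) and that of SRSF8 without MDA-MB-231 shTAF7 replicate 2 (0.159). HNRNPR was lower with the control hairpin (-0.48 ± 0.07, 3.42e-08) and at 0.03 ± 0.07 (0.705) with shTAF7, where PTBP1 was higher (0.56 ± 0.07, 1.18e-09) after 0.01 with the control hairpin. SRSF11 had 240.4 and 213 CPM in LM2 shTAF7 libraries against 265 and 302 CPM in MDA-MB-231 shTAF7 libraries (-0.33 ± 0.07, 0.000172).

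**Figure D5:**
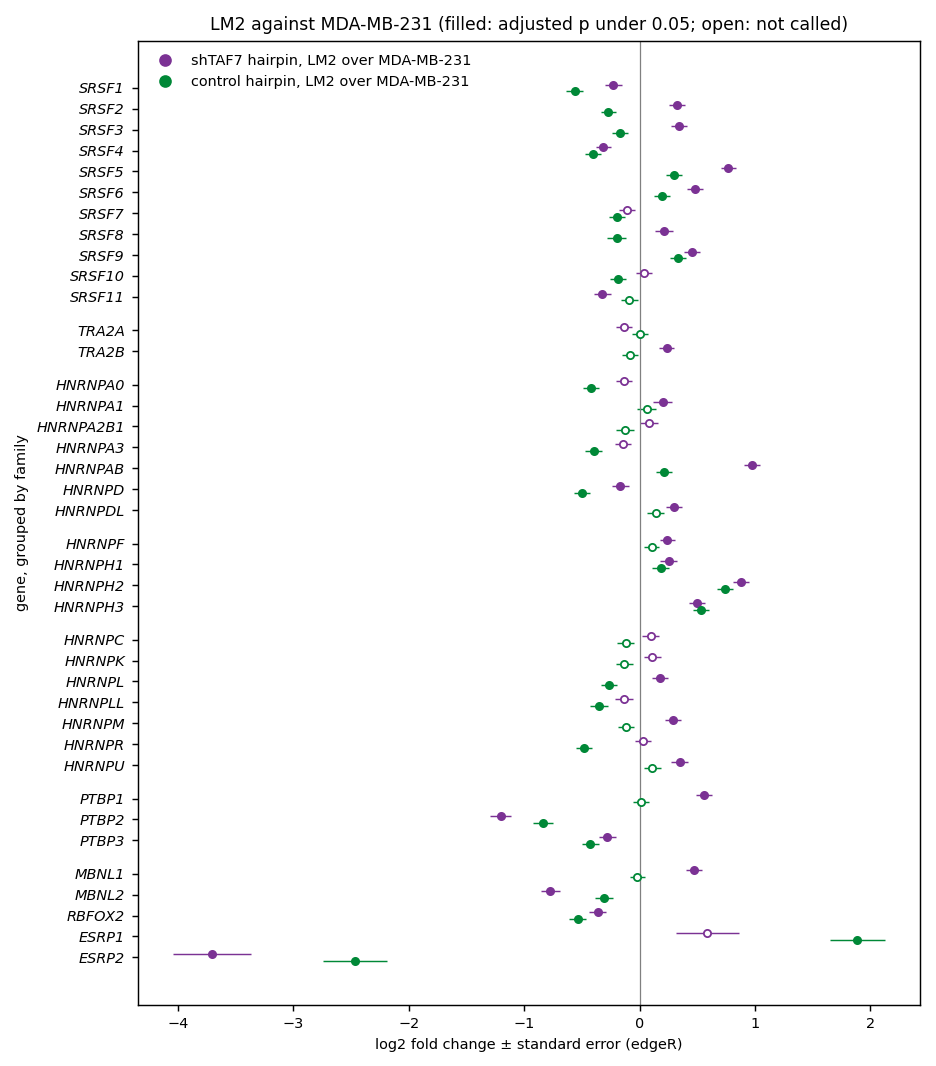
Log2 fold change of LM2 over MDA-MB-231 ± SE (edgeR, n = 2 libraries per group) with the shTAF7 hairpin (purple) and the control hairpin (green); filled points have an adjusted p under 0.05. HNRNPAB reaches 0.97 with shTAF7, PTBP2 and ESRP2 lie far left with both hairpins, and ESRP1 lies right of 0.

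The machinery around these genes was examined through 4 related lists, whose counts stand beside 21.8% higher and 19.4% lower among all tested genes in LM2 (51.1% and 13.9% above 100 CPM) and 12.6% and 12.9% in MDA-MB-231 (21.9% and 24.4% above 100 CPM). After knockdown in LM2, 31 of 39 core spliceosome genes were called higher and 0 lower by edgeR (0 lower also at an unadjusted p under 0.05 and by DESeq2), against 11 higher and 9 lower in MDA-MB-231. With library totals in place of TMM the LM2 split was 25 higher and 1 lower. All tested genes in LM2 were then 13.1% higher and 29.3% lower, which is the background for every split with library totals below. SNRNP70, a protein of the U1 particle that SR proteins contact at the splice donor, had 441 and 505 CPM in LM2 shTAF7 libraries and 270.1 and 273 CPM in LM2 controls (0.80 ± 0.07, adjusted p 4.5e-13), and in MDA-MB-231 its fold change was 0.23 ± 0.07 (0.0131). Of 9 genes for SR kinases and nuclear import, 1 was called higher and 4 lower in LM2, and 2 higher and 3 lower in MDA-MB-231. With library totals the LM2 split was 1 higher and 7 lower. CLK1, a nuclear SR kinase, had 48.0 and 47.1 CPM in LM2 shTAF7 libraries and 70.8 and 63.3 CPM in LM2 controls, but 60.2 and 76.2 CPM in MDA-MB-231 shTAF7 libraries against 50.1 and 48.1 CPM in MDA-MB-231 controls. It moved in opposite directions, by -0.50 ± 0.09 (5.69e-06) in LM2 and 0.48 ± 0.09 (2.74e-05) in MDA-MB-231, and the difference was -0.98 ± 0.12 (1.44e-08). TNPO3, which encodes transportin 3, had the reverse pattern, at 0.30 ± 0.07 (0.000319) in LM2 and -0.33 ± 0.07 (0.000195) in MDA-MB-231, a difference of 0.64 ± 0.10 (1.34e-06). The other kinases named by rule were CLK4 (-0.43) and SRPK2 (-0.31) in LM2 and CLK2 (0.46), SRPK1 (-0.40) and DYRK1A (-0.23) in MDA-MB-231.

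Among 15 genes of NMD and the exon junction complex, 6 were called higher and 4 lower in LM2, and 1 higher and 7 lower in MDA-MB-231. The LM2 balance turned with library totals, at 4 higher and 6 lower, where the median log2 fold change was -0.07 in place of 0.06. The median of all tested genes moved likewise, to -0.14 in place of -0.02, with 13.1% of them higher and 29.3% lower. Of the 6 called higher in LM2, the 3 with the largest changes were RBM8A (0.69 ± 0.08), MAGOH (0.50 ± 0.08) and EIF4A3 (0.43 ± 0.07). These 3 are junction complex genes. The rest of the 6 are not named here, so the 3 do not stand for all genes called higher. Among those lower were the decay factor UPF2 (-0.46 ± 0.08) and the kinase SMG1 (-0.40 ± 0.08). In MDA-MB-231 the decay factors SMG6 (-0.45 ± 0.10) and SMG5 (-0.38 ± 0.07) were lower, while MAGOH was higher (0.32 ± 0.08). Of 48 tested genes for other splicing regulators, 26 were called higher and 5 lower in LM2, and 6 and 6 in MDA-MB-231. With library totals the LM2 split was 19 and 12. Among genes averaging 5 CPM or more, KHDRBS3 (0.75 ± 0.08), RNPS1 (0.65 ± 0.07) and PSPC1 (0.58 ± 0.07) led those called higher in LM2. RBM5 (-0.61 ± 0.07), a putative tumour suppressor that favours apoptotic splice forms, led those called lower under the same bound. Over all 48 tested genes the log2 fold changes in LM2 ran from -1.17 to 0.83.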

How the data were processed

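Gene counts and FPKM were deposited by the authors as tables of 61552 genes by 8 libraries. The deposited counts are whole numbers without normalization, and the deposited FPKM are the authors' scaling to length and library total, judging by the values. STAR 2.7.10a and the build hg19 are named in the submitters' processing notes, with no role given. How reads were counted, whether by strand and on which gene models, is not given in the sources used here, so overlapping genes may share reads. All 8 columns were used.

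Counts passing filterByExpr were scaled with TMM and fitted with one mean per group over all 8 libraries (R 4.3.3, edgeR 4.0.16 quasi-likelihood test, 4 residual degrees of freedom). P-values were adjusted by Benjamini-Hochberg over 15923 genes, with calls under 0.05. SE is the absolute log2 fold change divided by the square root of F. The 2 libraries of a group differed by more than sampling noise (chi-square per gene 2.25 to 6.79), so neither was the other deposited again. Separate libraries from the same RNA or culture cannot be told apart from separate cultures by this. The steps were tested on simulated data.

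The members and lists, and the rule for named genes, were chosen with earlier results of these data known. Values per library are given for up to 6 called members per direction and comparison, ranked by absolute log2 fold change among members averaging 5 CPM or more whose groups did not overlap, and up to 3 genes per direction from each related list are named in the knockdown comparisons. A gene that this rule picked from a related list is not reported here. SRSF7, SRSF8, TRA2A, TRA2B and the other members outside that rule were added to account for the families. Gene structure came from GENCODE 29 (GRCh38).

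Alternatives were DESeq2 1.42.0, RLE size factors, library totals, no filter, only the libraries compared, limma-trend (limma 3.58.1) on log2 FPKM with pseudocounts of 1 and 0.1, a threshold of 0.01, the replicate number as a block and each library left out. Library totals and the bound of 100 CPM were chosen after seeing the data.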

Additional observations from a re-analysis of the deposited data

Results flagged for a closer look

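The effect of the TAF7 hairpin differed between the lines for 18 of the 39 genes by the interaction test (edgeR, adjusted p under 0.05), against 25.8% of all tested genes. Above 100 CPM, 40.6% of 32 splicing genes and 36.0% of all genes were called positive, and 12 of the 18 calls held with library totals. Each value is the log2 fold change in LM2 minus that in MDA-MB-231. Among SR and TRA2 genes it was 0.59 for SRSF2 (adjusted p 4.19e-06), 0.51 for SRSF3 (8.31e-05), 0.47 for SRSF5 (0.000194), 0.41 for SRSF8 (0.0065), 0.33 for SRSF1 (0.0121), 0.32 for TRA2B (0.0107) and 0.29 for SRSF6 (0.0221). Among hnRNP genes it was 0.77 for HNRNPAB (4.67e-08), 0.52 for HNRNPR (5.91e-05), 0.44 for HNRNPL (0.000495), 0.41 for HNRNPM (0.00105), 0.33 for HNRNPD (0.0112) and 0.29 for HNRNPA0 (0.0233). PTBP1 had 0.55 (2.85e-05) and MBNL1 0.49 (8.4e-05). The 3 negative values were -1.3 for ESRP1 (0.00667), -0.46 for MBNL2 (0.0015) and -0.37 for PTBP2 (0.0292). Without MDA-MB-231 control replicate 3 the calls of SRSF1, SRSF6, SRSF8, TRA2B, HNRNPA0, HNRNPD and PTBP2 were lost (adjusted p 0.0586 to 0.166). The call of ESRP1 was lost without MDA-MB-231 shTAF7 replicate 2 (0.0654). Other single libraries also ended calls of SRSF1 (LM2 control replicate 2, 0.0945), TRA2B (LM2 control replicate 3, 0.0616), HNRNPD and HNRNPA0 (LM2 control replicate 3 or MDA-MB-231 control replicate 2), SRSF6 and PTBP2. TAF7 itself kept 74.2% of its control level in LM2 and 58.5% in MDA-MB-231 (a difference in log2 fold change of 0.34, adjusted p 0.00544), and the part of that gap in these differences was not tested.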

How the results depend on the processing

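Of 115 calls on single members in the 5 comparisons, 67 held under every alternative, 48 were lost under at least 1, and 0 changed sign. Causes were not tested unless stated. At an adjusted p under 0.01, 3 members were higher in MDA-MB-231 after knockdown. Limma-trend on log2(FPKM + 1) without a filter gave 3 higher and 0 lower there (8 lower at an unadjusted p under 0.05, against 6 by edgeR and 6 by DESeq2 after adjustment), 17 higher and 2 lower in LM2, and 7 positive interactions. Library totals gave 10 lower in LM2 after knockdown, with 29.3% of all tested genes lower. That scaling gave 14 lower in LM2 against MDA-MB-231 with shTAF7 (35.9% of all tested genes) and 9 positive interactions (8.15% of all). Limma-trend on filtered FPKM gave 14 and 9 for the last 2 with a pseudocount of 1 or 0.1, and 7 lower after knockdown in LM2 with 0.1. FPKM and library totals share the same scaling. Leaving out each library in turn gave 0 to 7 higher and 2 to 8 lower after knockdown in MDA-MB-231, 22 to 26 higher and 3 to 5 lower in LM2, 5 to 9 higher and 14 to 19 lower between controls, 16 to 19 higher and 8 to 10 lower with shTAF7, and 9 to 19 positive and 2 to 4 negative interactions. A lone library of a group was then assumed to vary like the other groups. The number of calls among all tested genes also changed with the library left out.

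Replicate numbers did not pair the libraries: deviations of same-numbered libraries correlated between -0.0618 and 0.0214. With the replicate block, 6 members were higher and 6 lower after knockdown in MDA-MB-231, and 26 and 5 after it in LM2. For LM2 against MDA-MB-231 the block gave 8 and 18 with the control hairpin and 19 and 8 with shTAF7, and for the interaction 15 and 3. The fit to only the libraries compared could not be made for the interaction. ESRP1, ESRP2 and SRSF12 were limited by their low counts.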
